A study of Mus musculus with 6 samples.

Results

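The NLRP3 inflammasome and interleukin-1 axis was followed through 10 genes, chosen by symbol: Nlrp3, Pycard, Casp1, Gsdmd, Il1a, Il1b, Il18, Il1rn, Il1r1 and Il1r2. All 10 had a row among the 38926 gene symbols of the count tables, and 9 were among the 16706 genes that passed the low-count filter. Il1a had too few reads to pass. The samples were lumbar dorsal root ganglia (L3 to L5, from the side of the treated paw) of wild-type female C57BL/6 mice aged 8 to 10 weeks, with ganglia of 4 animals pooled into each sample. The vincristine group held 3 such pools from mice given a cumulative 40 µg of vincristine into the paw, and the vehicle group held 3 pools from mice given vehicle in its place. The tables themselves are named with 10 µg, and the sources used here do not say how the dose was divided. The drug, a vinca alkaloid of cancer chemotherapy, binds tubulin, and the series addresses the neuropathy it can cause. Each library of total RNA held 12374331 to 26346304 reads assigned to genes, the fewest in vincristine replicate 1.

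The inflammasome is a cytosolic complex in which a sensor such as NLRP3 recruits the adaptor ASC, encoded by Pycard, and through it the protease caspase-1. Active caspase-1 cleaves the precursors of interleukin-1β and interleukin-18, and also gasdermin D, whose fragments form pores in the membrane. Interleukin-1α and interleukin-1β signal through the receptor encoded by Il1r1; the antagonist encoded by Il1rn blocks that receptor, and the Il1r2 product binds the ligands without signalling. In sensory ganglia the inflammasome and ligand genes are known mostly from macrophages, neutrophils and other non-neuronal cells, and interleukin-1β can sensitize nociceptors. Transcript levels do not report cleavage or release of the proteins.

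The antagonist Il1rn, the decoy receptor Il1r2, the ligand Il1b, the sensor Nlrp3 and the receptor Il1r1 each had a higher level in every vincristine library than in any vehicle library. Log2 fold changes of these 5 genes ran from 0.67 for Il1r1 to 2.02 for Il1rn. The levels of Casp1, Gsdmd, Pycard, Il18 and Il1a overlapped between the groups. By edgeR's quasi-likelihood test 0 of the 9 tested genes passed a Benjamini-Hochberg adjusted p of 0.05, where 0.359% of all genes tested did. At an unadjusted p under 0.05, edgeR placed 5 of the 9, each higher with vincristine, where 8.10% of all genes tested were higher at that level. DESeq2 called 3 of them higher (Il1rn, Il1r1 and Il1r2), where it called 2.49% of all its tested genes higher. limma-voom called 0 members, against 0.210% of all genes called higher, and 2 members (Il1rn and Il1r1) once samples were weighted by quality, against 2.39%. Groups that did not overlap, with vincristine higher, were found for 5 of the 9 tested members and 11.5% of all genes tested, and with vincristine lower for 0 of the 9 and 9.51% of all genes. The log2 fold change was above 0 for 9 of the 9 and for 49.3% of all genes, and at least 1 for 4 of the 9 (Il1rn, Il1r2, Il1b and Nlrp3) and 3.88% of all genes. The median log2 fold change was 0.67 over the 9 tested members and -0.00 over all genes tested. In whole ganglia, more cells of a type and more RNA per cell cannot be told apart.

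**Figure D1:**
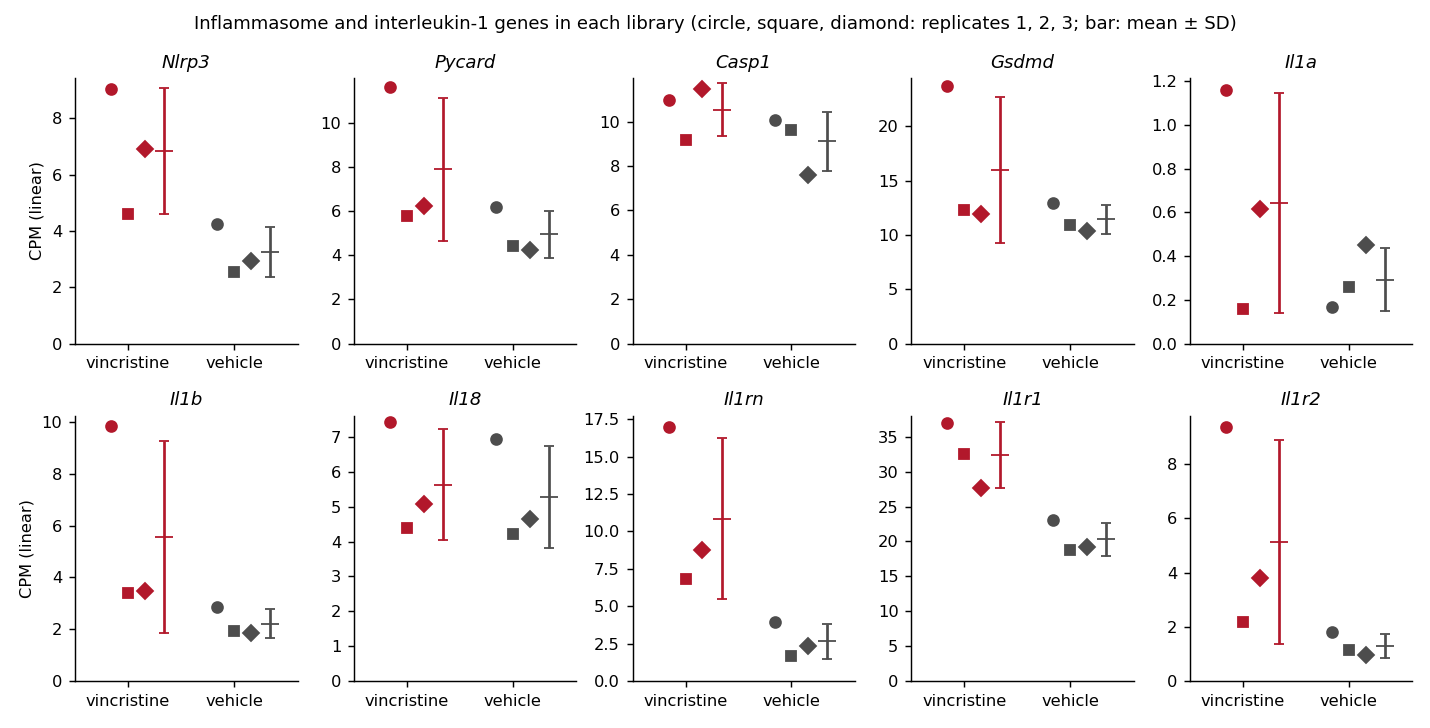
CPM (gene counts scaled to a common library total) of the 10 genes on linear axes that start at 0, with a panel per gene, the vincristine libraries on the left and the vehicle libraries on the right. Circles, squares and diamonds mark replicates 1, 2 and 3, and bars give the mean ± SD (n = 3 each). The vincristine libraries lie above the vehicle libraries for Nlrp3, Il1b, Il1rn, Il1r1 and Il1r2, and vincristine replicate 1 is the highest of the 6 libraries for each gene other than Casp1.

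The vincristine libraries were not alike. Vincristine replicate 1 lay apart from the other 5 libraries on the first principal component, which held 56.4% of the variance, and its quality weight in limma was 0.194 against 0.849 to 2.66 for the rest. Without that library the log2 fold change was 1.57 for Il1rn, 1.24 for Il1r2, 0.83 for Nlrp3, 0.64 for Il1b and 0.56 for Il1r1. For Pycard it was 0.29, for Casp1 0.19, for Gsdmd 0.09 and for Il18 -0.15. The median over the 9 members was 0.56 without it. DESeq2 without that library called 2 members, Il1rn and Il1r1, against 2.48% of its genes called higher, and gave Il1r2 an adjusted p of 0.156. What set that library apart was not tested.

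Markers of other cell types also differed between the libraries, on lists chosen with earlier results of these data known. Counts of markers stand beside 2.49% of all genes called higher by DESeq2 and 0.293% by edgeR. At an unadjusted edgeR p under 0.05, 8.10% of all genes were higher. Of 14 neutrophil markers, each with reads in the data, 14 were higher with vincristine by DESeq2 and 0 by edgeR, with all 14 under an unadjusted p of 0.05 by edgeR. Their summed level ran from 2605 to 7854 CPM in vincristine libraries and from 815 to 1428 CPM in vehicle libraries. The calprotectin subunits S100a9 and S100a8, the most abundant of them, averaged 1385 ± 966 and 973 ± 727 CPM with vincristine and 341 ± 102 and 234 ± 69.3 CPM with vehicle (SD, n = 3 each). Of 17 monocyte and macrophage markers, none at 0 reads, 7 were called higher by DESeq2 and 0 by edgeR (13 at unadjusted p under 0.05), and they summed to 1328 to 2595 CPM with vincristine and 795 to 1042 CPM with vehicle. Among the most abundant of these, lysozyme (Lyz2) averaged 852 ± 438 CPM with vincristine and 331 ± 72.8 CPM with vehicle, and Csf1r, the receptor for macrophage growth factors, 123 ± 23.6 CPM with vincristine and 95.6 ± 7.99 CPM with vehicle. The 5 granulocyte precursor markers summed to 47.5 to 174 CPM with vincristine and 40.3 to 65.9 CPM with vehicle. DESeq2 and edgeR called 0 of them, and 3 were higher at an unadjusted edgeR p under 0.05. The 9 red cell markers summed to 2430 to 5809 CPM with vincristine and 1205 to 1692 CPM with vehicle. DESeq2 called 7 of these 9 higher and edgeR 0, with all 9 higher at an unadjusted edgeR p under 0.05. Median log2 fold changes were 2.02 for neutrophil, 1.56 for red cell, 1.16 for granulocyte precursor and 0.68 for macrophage markers. The part of these cell types in the differences of the 10 genes was not tested.

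The ganglion's own cells were present in each library. Sensory neuron markers summed to 4424, 9345 and 11122 CPM in vincristine replicates 1, 2 and 3, against 9644, 12296 and 11899 CPM in vehicle replicates 1, 2 and 3, so vincristine replicate 1 was the lowest. Satellite glia markers summed to 3298 to 3483 CPM with vincristine and 3055 to 3402 CPM with vehicle, and myelinating Schwann cell markers to 10086 to 14222 CPM with vincristine and 11042 to 15803 CPM with vehicle. Endothelial markers summed to 241 to 375 CPM with vincristine and 268 to 326 CPM with vehicle, and fibroblast markers to 4238 to 8858 CPM with vincristine and 5309 to 9346 CPM with vehicle. T and NK cell markers summed to 8.09 to 25.9 CPM with vincristine and 8.13 to 13.4 CPM with vehicle, mast cell markers to 77.4 to 105 CPM with vincristine and 98.6 to 114 CPM with vehicle. By edgeR 0.359% of all genes tested were called in either direction, and of 9 tested B-cell markers 7 were called lower. The median log2 fold change of the 9 was -3.55. Cd79b, the second most abundant of them, averaged 2.04 ± 0.787 CPM with vincristine and 13.4 ± 3.92 CPM with vehicle (SD, n = 3 each). It was called lower at an edgeR adjusted p of 0.0308. The list summed to 95.8 to 156 CPM with vincristine and 195 to 249 CPM with vehicle, most of it Ebf1, which other cells also express and which averaged 130 ± 36.8 CPM with vincristine and 161 ± 19.1 CPM with vehicle and was not called.

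**Figure D2:**
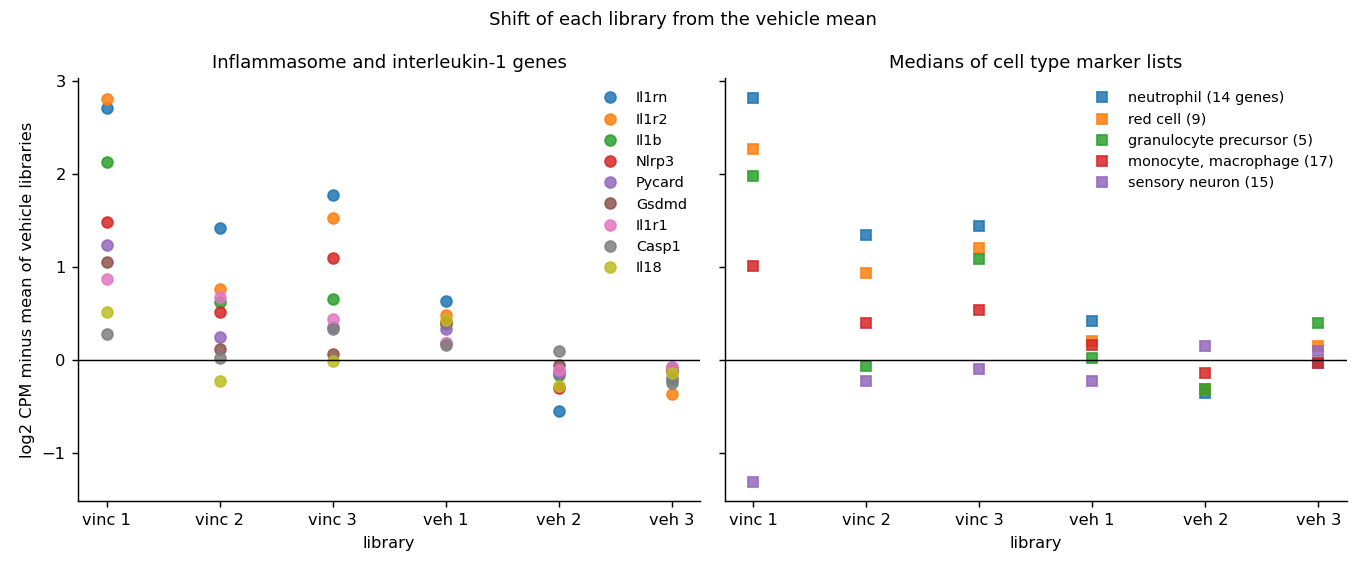
Difference in log2 CPM of each library from the mean of the 3 vehicle libraries, for the 9 tested genes on the left and as the median over each of 5 cell type marker lists on the right, with 3 vincristine and 3 vehicle libraries. Vincristine replicate 1 has the highest shift for Il1rn (2.72), Il1r2 (2.80), Il1b (2.13) and Nlrp3 (1.48). It also has the highest for the neutrophil (2.82), red cell (2.27), granulocyte precursor (1.98) and macrophage markers (1.01), and the lowest for the sensory neuron markers (-1.31).

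Nlrp3, the sensor whose transcription is known to be induced by innate immune signals in macrophages, lies on chromosome 11 (59541568 to 59566956, plus strand, GRCm38). Its level was 9.06, 4.59 and 6.90 CPM in vincristine replicates 1, 2 and 3, from 88 to 179 reads, and 4.26, 2.55 and 2.95 CPM in vehicle replicates 1, 2 and 3, from 49 to 76 reads. The lowest vincristine library lay just above the highest vehicle library, so the groups were separate by a narrow gap. The means were 6.85 ± 2.23 and 3.25 ± 0.892 CPM in vincristine and vehicle libraries (SD, n = 3 each). The log2 fold change was 1.07 ± 0.31 (SE) with a 95% interval of 0.34 to 1.79. The unadjusted p of edgeR was 0.0102 and its adjusted p 0.263, and DESeq2 gave an adjusted p of 0.0577, so neither test called it. Letters matching the NF-κB consensus stand in the 250 bases before the first of its 2 RefSeq starts (GRCm38.p6, chr11:59541319-59541568, plus strand), and this window is shown because Nlrp3 is a known NF-κB target. The NF-κB match, in capitals, begins 186 bases before the start, and the other capitals are matches to the C/EBP motif TTNNGNAA, at 204 and 125 bases.
Nlrp3 start 1: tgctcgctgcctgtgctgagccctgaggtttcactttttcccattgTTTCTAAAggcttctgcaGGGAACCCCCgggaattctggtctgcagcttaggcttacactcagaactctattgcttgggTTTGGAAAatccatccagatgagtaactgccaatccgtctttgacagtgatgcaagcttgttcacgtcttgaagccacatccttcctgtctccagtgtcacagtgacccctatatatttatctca
The NF-κB consensus was found on either strand in 2 of 13 upstream windows of 9 members, the other being the second start of Il1r1, and in 7.25% of all 32841 mouse windows of that length. A match is a match of letters only.

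Pycard encodes ASC, the adaptor that polymerizes into the speck on which caspase-1 is activated, and lies on chromosome 7 (127989708 to 127993867, minus strand). It had 11.6, 5.80 and 6.24 CPM in the vincristine libraries against 6.16, 4.43 and 4.25 CPM in the vehicle libraries, so that vincristine replicate 2 lay within the vehicle range. Its log2 fold change of 0.66 ± 0.31 (SE) had a 95% interval of -0.07 to 1.39 and an edgeR adjusted p of 0.489. Casp1, the effector protease (chromosome 9, 5298517 to 5307265, plus strand), also overlapped, at 10.99, 9.19 and 11.4 CPM in the vincristine libraries against 10.1, 9.64 and 7.60 CPM in the vehicle libraries. Its log2 fold change was 0.21 ± 0.17 (SE), with a 95% interval of -0.18 to 0.60 and an edgeR adjusted p of 0.670. The interval of Casp1 leaves out a change as large as the 1.07 estimated for Nlrp3. The interval of Nlrp3, 0.34 to 1.79, overlaps that of Casp1, and a difference between these genes was not tested.

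Gsdmd, whose product forms the pores through which mature interleukin-1β can leave the cell, lies on chromosome 15 (75862327 to 75867408, plus strand). It had 23.7 CPM in vincristine replicate 1 but 12.3 and 11.9 CPM in vincristine replicates 2 and 3, against 12.9, 10.9 and 10.4 CPM in the vehicle libraries. Only vincristine replicate 1 lay above the vehicle range: the log2 fold change was 0.47 ± 0.28 (SE, edgeR adjusted p = 0.578) with it and 0.09 without it.

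Of the 3 ligand genes, Il1b was the one whose groups did not overlap. It encodes the inducible precursor that caspase-1 cleaves, and lies on chromosome 2 (129364570 to 129371139, minus strand). Its level was 9.83, 3.39 and 3.47 CPM in vincristine replicates 1, 2 and 3 (127, 65 and 90 reads) and 2.86, 1.93 and 1.85 CPM in vehicle replicates 1, 2 and 3 (51, 37 and 37 reads). All 3 vincristine libraries were above the vehicle libraries, and replicate 1 was far above the other 2 vincristine libraries. The means were 5.56 ± 3.70 and 2.21 ± 0.560 CPM with vincristine and vehicle (SD, n = 3 each). The log2 fold change was 1.30 ± 0.47 (SE), with a 95% interval of 0.20 to 2.41, an unadjusted edgeR p of 0.0269 and an adjusted p of 0.365. DESeq2 gave an adjusted p of 0.132. An antisense gene, Il1bos, overlaps Il1b and had no row, and the sources used here do not say whether the counting used strand.

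Il1a encodes interleukin-1α, which is active without caspase-1 cleavage and is known as an alarmin released by damaged cells. Beside Il1b on chromosome 2 (129299610 to 129309972, minus strand), it was barely detected, with 15, 3 and 16 reads in the vincristine libraries and 3, 5 and 9 reads in the vehicle libraries. These reads came to 1.16, 0.157 and 0.617 CPM with vincristine and 0.168, 0.261 and 0.450 CPM with vehicle, so vincristine replicate 2 was the lowest of all 6. A fit without the low-count filter gave a log2 fold change of 1.02 ± 0.67 (SE) and an edgeR adjusted p of 0.715, and a difference was not detectable at this depth. The opposite-strand gene Gm14023 overlaps it and had 10 to 14 reads in vincristine libraries and 7 to 11 reads in vehicle libraries. The windows of 250 bases before the starts of Il1a (GRCm38.p6, chr2:129309973-129310222, minus strand) and Il1b (chr2:129371140-129371389, minus strand) are set side by side because they alone among the 13 windows hold the exact letters TATAAA, and they belong to neighbouring genes that differed in level. Looser forms of the TATA box were not searched. Capitals mark the TATA box TATAAA, searched on the coding strand and beginning 32 bases before the start of Il1a and 31 bases before that of Il1b, and the C/EBP motif TTNNGNAA, beginning 43 and 91 bases before those starts. In Il1a the Spi1 core GAGGAA, at 41 bases, lies within the C/EBP match.
Il1a: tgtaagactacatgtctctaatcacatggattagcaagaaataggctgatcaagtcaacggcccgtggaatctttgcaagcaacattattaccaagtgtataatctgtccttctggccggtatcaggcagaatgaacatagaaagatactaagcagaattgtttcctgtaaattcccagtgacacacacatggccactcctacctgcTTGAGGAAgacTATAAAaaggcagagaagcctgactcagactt
Il1b: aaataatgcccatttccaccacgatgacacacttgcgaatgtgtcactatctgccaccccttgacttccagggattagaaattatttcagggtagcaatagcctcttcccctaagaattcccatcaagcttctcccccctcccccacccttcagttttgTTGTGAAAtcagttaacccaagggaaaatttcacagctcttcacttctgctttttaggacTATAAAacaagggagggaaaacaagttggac
TATAAA was found in 7.59% of all windows, TTNNGNAA on either strand in 36.9%, and GAGGAA on either strand in 23.3%. Among the 13 windows of the members, 9 held TTNNGNAA and 4 held GAGGAA, which came to 6 and 4 of the 9 members with a window. The windows of Il1rn starts 2 and 3 overlap and share a TTNNGNAA match. Gsdmd had no entry in the promoter table.

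Il18, made constitutively as a precursor in many cells, overlapped between the groups. It lies on chromosome 9 (50554827 to 50581840, plus strand) and had 7.43, 4.39 and 5.09 CPM in the vincristine libraries against 6.95, 4.22 and 4.65 CPM in the vehicle libraries. Its log2 fold change was 0.09 ± 0.28 (SE), with a 95% interval of -0.57 to 0.74 and an edgeR adjusted p of 0.934. The opposite-strand gene Bco2, which overlaps it, had 23 to 41 reads in vincristine libraries and 28 to 38 reads in vehicle libraries, fewer than the 81 to 132 reads of Il18.

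Il1rn, the gene of the receptor antagonist, had the highest estimated log2 fold change of the tested members, within its error of that of Il1r2, which was the higher without vincristine replicate 2 (2.34 for Il1r2 and 2.29 for Il1rn). It lies on chromosome 2 (24336853 to 24351494, plus strand) and had 16.96, 6.84 and 8.75 CPM in vincristine replicates 1, 2 and 3 (219, 131 and 227 reads), against 3.92, 1.67 and 2.35 CPM in vehicle replicates 1, 2 and 3 (70, 32 and 47 reads). Each vincristine library was above the highest vehicle library. The means were 10.8 ± 5.37 and 2.65 ± 1.16 CPM with vincristine and vehicle (SD, n = 3 each), 4.10-fold apart. The log2 fold change was 2.02 ± 0.44 (SE), with a 95% interval of 0.998 to 3.05, an unadjusted edgeR p of 0.00224 and an adjusted p of 0.163. DESeq2 called it at an adjusted p of 0.000361, and at 0.000859 without vincristine replicate 1, and limma-voom with quality weights at 0.0216. RefSeq gives Il1rn 3 starts, of which the third has the most C/EBP matches of the 3. Its window (GRCm38.p6, chr2:24345121-24345370, plus strand) is printed because C/EBP factors are known from the myeloid cells that make the secreted antagonist, and capitals mark 3 TTNNGNAA matches, at 161 bases and, overlapping each other, at 65 and 64 bases before the start.
Il1rn start 3: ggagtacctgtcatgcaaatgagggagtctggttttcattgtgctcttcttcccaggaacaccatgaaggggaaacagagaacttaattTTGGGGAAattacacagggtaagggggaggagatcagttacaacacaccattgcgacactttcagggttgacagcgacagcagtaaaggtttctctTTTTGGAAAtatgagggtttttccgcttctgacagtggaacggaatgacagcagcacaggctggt
None of these letters shows that a factor was bound.

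Il1r1, the signalling receptor, had the tightest replicates of the 5 genes that separated the groups. It lies on chromosome 1 (40225080 to 40317257, plus strand) and had 37.0, 32.5 and 27.6 CPM in vincristine replicates 1, 2 and 3 (478, 622 and 716 reads), against 23.0, 18.8 and 19.1 CPM in vehicle replicates 1, 2 and 3 (411, 361 and 383 reads). The means were 32.4 ± 4.71 and 20.3 ± 2.34 CPM with vincristine and vehicle (SD, n = 3 each). Its log2 fold change was 0.67 ± 0.15 (SE), with a 95% interval of 0.32 to 1.01, an unadjusted edgeR p of 0.0024 and an adjusted p of 0.169. DESeq2 called it at an adjusted p of 0.0150, and at 0.0276 without vincristine replicate 1.

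Il1r2, the decoy receptor of neutrophils and some macrophages, is its neighbour on chromosome 1 (40074079 to 40125231, plus strand). It had 9.37, 2.19 and 3.82 CPM in vincristine replicates 1, 2 and 3 (121, 42 and 99 reads) and 1.79, 1.15 and 0.950 CPM in vehicle replicates 1, 2 and 3 (32, 22 and 19 reads). The groups did not overlap, but vincristine replicate 1 was more than 4 times vincristine replicate 2. The means of 5.13 ± 3.76 CPM with vincristine and 1.30 ± 0.441 CPM with vehicle (SD, n = 3 each) were 3.95-fold apart. Its log2 fold change was 1.95 ± 0.56 (SE), with a 95% interval of 0.62 to 3.28, an unadjusted edgeR p of 0.0102 and an adjusted p of 0.263, and DESeq2 called it at an adjusted p of 0.0188. The overlapping opposite-strand gene Gm16894 had 5 to 14 reads in vincristine libraries and 9 to 13 reads in vehicle libraries.

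**Figure D3:**
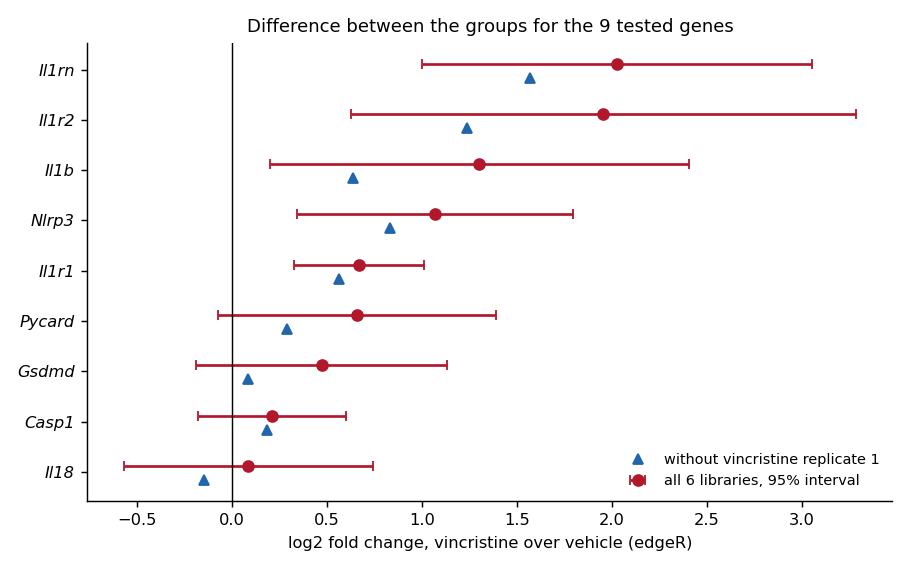
Log2 fold change of vincristine over vehicle with its 95% interval from edgeR for the 9 tested genes, beside the estimate without vincristine replicate 1. Il1rn (2.02) and Il1r2 (1.95) lie farthest to the right, the intervals of Nlrp3, Il1b, Il1rn, Il1r1 and Il1r2 lie above 0, and without that library Il18 lies below 0.

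Antagonist and agonist can be weighed within a library, where depth cancels but gene length does not. The exons of Il1rn cover 2706 bases and those of Il1b 1356 bases. The read ratios therefore compare libraries, and do not say which transcript was the more abundant. Il1rn reads were 1.72, 2.01 and 2.51 times those of Il1b in vincristine replicates 1, 2 and 3, and 1.37, 0.867 and 1.27 times in vehicle replicates 1, 2 and 3. The ratio was higher in each vincristine library than in any vehicle library, and vincristine replicate 1 had the lowest ratio of its group. The mean log2 ratio, with 0.5 added to each count, was 1.04 ± 0.27 with vincristine and 0.20 ± 0.35 with vehicle (SD, n = 3 each), a difference of 0.84. The exact two-sided permutation p was 0.1, which is the smallest that 3 against 3 libraries can give.

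Decoy and signalling receptor were set against each other in the same way, again without correction for length (1419 exon bases for Il1r2 and 6115 for Il1r1). Il1r2 reads were 0.254, 0.0683 and 0.139 times those of Il1r1 in the vincristine libraries and 0.0790, 0.0622 and 0.0508 times in the vehicle libraries, so the groups overlapped. The mean log2 ratio was -2.90 ± 0.95 with vincristine and -3.99 ± 0.32 with vehicle (SD, n = 3 each), a difference of 1.09 (exact two-sided permutation p = 0.2), and the difference was 0.63 without vincristine replicate 1.

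Levels can be compared between genes only per kilobase of exon, as FPKM. In vincristine libraries the order ran Gsdmd (8.91 ± 3.73 FPKM), Casp1 (7.04 ± 0.798), Il18 (5.47 ± 1.55), Il1r1 (5.29 ± 0.770), Il1b (4.10 ± 2.73), Il1rn (4.01 ± 1.99), Il1r2 (3.61 ± 2.65), Pycard (2.07 ± 0.852), Nlrp3 (1.69 ± 0.550) and Il1a (0.327 ± 0.255 FPKM; SD, n = 3). Neighbours in this order overlapped except for Nlrp3 and Il1a. In vehicle libraries it ran Gsdmd (6.38 ± 0.747 FPKM), Casp1 (6.08 ± 0.886), Il18 (5.11 ± 1.42), Il1r1 (3.32 ± 0.383), Il1b (1.63 ± 0.413), Pycard (1.30 ± 0.278), Il1rn (0.978 ± 0.427), Il1r2 (0.913 ± 0.311), Nlrp3 (0.802 ± 0.220) and Il1a (0.148 ± 0.0728 FPKM; SD, n = 3). There the neighbours Il18 and Il1r1, Il1r1 and Il1b, and Nlrp3 and Il1a did not overlap. The order depends on the length taken. Counted over the shortest coding transcript of each gene, the level in vincristine and vehicle libraries was 38.5 and 27.5 FPKM for Gsdmd, 33.8 and 8.24 FPKM for Il1rn, 15.99 and 10.03 FPKM for Pycard, 14 and 3.54 FPKM for Il1r2, and 10.1 and 4.81 FPKM for Nlrp3. Casp1, Il1b and Il1a kept their values on that scale, while Il18 stood at 8.03 and 7.51 FPKM and Il1r1 at 6.7 and 4.21 FPKM with vincristine and vehicle. Gsdmd was first and Il1a last by mean level in both groups under both lengths.

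Other genes of the pathway were read from 7 lists, of which edgeR called 0 genes and DESeq2 10. The counts of each list stand beside 8.10% of all genes higher at an unadjusted edgeR p under 0.05, 2.49% called higher by DESeq2 and 49.3% with a log2 fold change above 0, and beside a median of -0.00. Of the other sensors and NOD-like receptors 14 of 16 were tested, 13 had a positive log2 fold change, 7 were under an unadjusted p of 0.05 and 2 were called higher by DESeq2. The median of that list was 0.69, and 0.47 without vincristine replicate 1. Nlrp12, a NOD-like receptor of myeloid cells, averaged 5.90 ± 1.18 CPM with vincristine and 2.32 ± 0.839 CPM with vehicle (log2 fold change 1.34 ± 0.30 SE, edgeR adjusted p = 0.171, DESeq2 adjusted p = 0.00378). Naip2, whose product detects bacterial secretion system proteins for Nlrc4, averaged 13.2 ± 6.06 CPM with vincristine and 5.98 ± 1.15 CPM with vehicle (log2 fold change 1.13 ± 0.33 SE, edgeR adjusted p = 0.263, DESeq2 adjusted p = 0.0405). Naip6 had a log2 fold change of 0.88 ± 0.28 (SE), and since the Naip genes are close copies, the split of reads among them is uncertain.

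Of the genes that license or restrain the inflammasome, all 14 were tested, 11 with a positive log2 fold change, 3 under an unadjusted p of 0.05 and 0 called by DESeq2, with a median of 0.43 (0.20 without vincristine replicate 1). Casp4, the mouse caspase-11 that senses lipopolysaccharide, averaged 10.4 ± 3.34 CPM with vincristine and 5.89 ± 0.657 CPM with vehicle (log2 fold change 0.81, edgeR adjusted p = 0.278). Ripk3, the necroptosis kinase, and Serpinb1a, an inhibitor of neutrophil proteases, had log2 fold changes of 0.94 and 0.43. Of 7 other gasdermin and lytic death genes 3 were tested and 0 had an unadjusted p under 0.05: Dfna5, now Gsdme, at 0.29, the necroptosis effector Mlkl at 0.45, and Ninj1, which ruptures the membrane of dying cells, at -0.13.

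Of 6 other ligands of the interleukin-1 family 2 were tested, and 4 had 0 reads in all libraries. Il1f9, now Il36g, encodes interleukin-36γ and had 16.9, 6.68 and 5.90 CPM in the vincristine libraries against 2.58, 1.72 and 2.30 CPM in the vehicle libraries. Every vincristine library was above every vehicle library, and its log2 fold change of 2.14 ± 0.45 (SE) was called by DESeq2 (adjusted p = 0.000192) and not by edgeR (adjusted p = 0.154). The alarmin Il33 averaged 36.3 ± 13.3 CPM with vincristine and 35.0 ± 6.04 CPM with vehicle, with a log2 fold change of 0.05. The median of those 2 ligands was 1.09.

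Of 9 other receptors and binding proteins 8 were tested, 6 with a positive log2 fold change, 2 under an unadjusted p of 0.05 and 1 called higher by DESeq2, with a median of 0.33. That gene, Il18rap, the signalling subunit of the interleukin-18 receptor, averaged 23.9 ± 11.7 CPM with vincristine and 7.65 ± 1.14 CPM with vehicle (log2 fold change 1.63 ± 0.33 SE, edgeR adjusted p = 0.143, DESeq2 adjusted p = 0.000299). Il1rap, the co-receptor that Il1r1 needs to signal, averaged 32.4 ± 4.81 CPM with vincristine and 24.5 ± 2.997 CPM with vehicle (log2 fold change 0.40 ± 0.15 SE, edgeR adjusted p = 0.371). The interleukin-18 receptor chain Il18r1 overlapped between the groups, at a log2 fold change of 0.97.

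Downstream of the receptor, all 22 genes of the signalling list were tested, 20 with a positive log2 fold change, 3 under an unadjusted p of 0.05 and 2 called higher by DESeq2, and their median was 0.15. The adaptor Myd88 averaged 20.2 ± 2.27 CPM with vincristine and 13.2 ± 2.02 CPM with vehicle (log2 fold change 0.62 ± 0.16 SE, edgeR adjusted p = 0.208, DESeq2 adjusted p = 0.0486). Irak3, an inhibitor of the pathway in myeloid cells, averaged 22.3 ± 2.86 CPM with vincristine and 14.8 ± 1.53 CPM with vehicle (log2 fold change 0.59 ± 0.14 SE, edgeR adjusted p = 0.193, DESeq2 adjusted p = 0.0385). Rela, the NF-κB subunit p65, had a log2 fold change of 0.26.

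Of 26 genes known to respond to interleukin-1, 16 were tested, 14 with a positive log2 fold change, 6 under an unadjusted p of 0.05 and 4 called higher by DESeq2, with a median of 0.37 (0.16 without vincristine replicate 1). Lcn2, a siderophore-binding protein that neutrophils also store, averaged 240 ± 149 CPM with vincristine and 53.4 ± 11.7 CPM with vehicle (log2 fold change 2.17 ± 0.42 SE, edgeR adjusted p = 0.128, DESeq2 adjusted p = 9.55e-06). The metalloreductase Steap4 averaged 65.0 ± 10.2 CPM with vincristine and 42.0 ± 4.37 CPM with vehicle (log2 fold change 0.63 ± 0.15 SE, edgeR adjusted p = 0.193, DESeq2 adjusted p = 0.0235). The monocyte chemokine Ccl2 averaged 6.93 ± 0.600 CPM with vincristine and 3.27 ± 1.12 CPM with vehicle (log2 fold change 1.09 ± 0.27 SE, edgeR adjusted p = 0.198, DESeq2 adjusted p = 0.0141). Its log2 fold change was the same, at 1.09, without vincristine replicate 1. The fourth of these genes, Tnf, averaged 2.54 ± 0.744 CPM with vincristine and 0.921 ± 0.337 CPM with vehicle (log2 fold change 1.44 ± 0.36 SE, edgeR adjusted p = 0.200, DESeq2 adjusted p = 0.0311). Tnf and the prostaglandin synthase Ptgs2 are named after their values were seen. Ptgs2 had 3.10, 0.888 and 0.925 CPM in the vincristine libraries against 3.59, 2.08 and 2.30 CPM in the vehicle libraries. Its log2 fold change was -0.77 (edgeR adjusted p = 0.621), and -1.54 without vincristine replicate 1, where DESeq2 called it lower. Il6, with 26 reads in all libraries together, and Cxcl2, with 16, were too low to test.

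**Figure D4:**
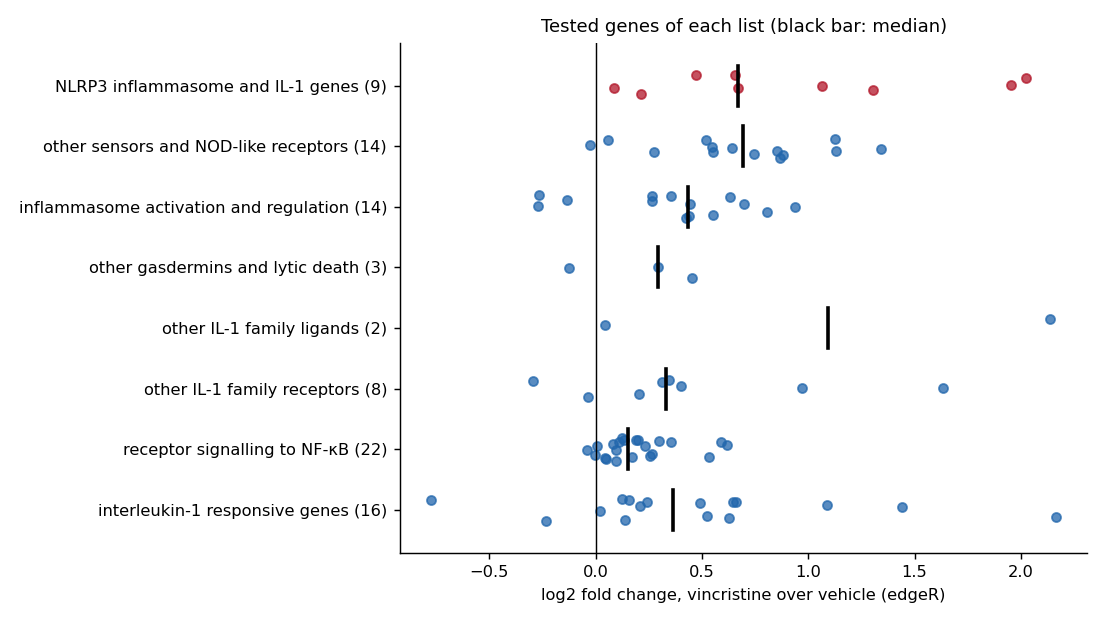
Log2 fold change of vincristine over vehicle for each tested gene of the 10 followed here and of 7 pathway lists, a row per list, with the median as a bar. The medians of the 7 lists run from 0.15 for receptor signalling to 1.09 for the other ligands, which hold 2 tested genes.

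The genes whose profile over the 6 libraries was most like that of a member were found by the root mean square difference of centred log2 CPM, among 13987 genes. Nearest to Il1rn were Padi4, Cxcr2 and Retnlg (0.126, 0.144 and 0.148, against a median of 1.13 over those genes), of which Cxcr2 and Retnlg were on the neutrophil list. Nearest to Il1b were Anxa1, Clec4a2 and Hbb-bt (0.0871, 0.109 and 0.109, median 0.796), the last of them on the red cell list. Nkg7, Klhl1 and Ms4a6d were nearest to Nlrp3 (0.116, 0.143 and 0.150, median 0.653), with Nkg7 on the T and NK cell list. Il1r1 was nearest to Sox18, Litaf and Plp2 (0.0735, 0.0737 and 0.0764, median 0.416). The points are 6 libraries that share their group, so these likenesses are descriptions.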

How the data were processed

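Whole-ganglion total RNA was sequenced as 75-nucleotide single-end reads from stranded libraries, per the labels. The authors deposited whole-number read counts per gene symbol for each of 6 libraries. STAR, SAMtools and HTSeq, and the builds mm10 and GRCm38, are named in the submitters' processing notes, without versions, and the annotation and strand setting are not stated there. HTSeq's summary lines were left out of library sizes, and of all reads 31.1 to 40.5% were not unique, 14.8 to 24.8% fell in no feature and 0.253 to 0.331% were ambiguous.

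Counts were filtered with filterByExpr (minimum count 10), scaled by TMM and tested with edgeR 4.0.16's quasi-likelihood test under R 4.3.3, two-sided, with Benjamini-Hochberg adjustment over 16706 genes, 3 vincristine against 3 vehicle libraries and 4 residual degrees of freedom. Libraries are pools of different animals by label, no covariate was used, and no library repeated another. DESeq2 1.42.0 and limma 3.58.1 were alternatives, with other scalings, filters, a replicate block and each library left out. DESeq2 without vincristine replicate 1 was added after seeing the data. The code was tested on simulated data. CPM use TMM-scaled totals, and FPKM divide them by exon length in GENCODE M21 (GRCm38), which held all 10 genes. Upstream windows are RefSeq's on GRCm38.p6.

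The 10 genes, the 7 pathway lists and 12 marker lists were chosen with earlier results of these data known. Named genes were all 10 and the up to 3 of each pathway list with the smallest edgeR p. Of the marker lists, the 2 most abundant genes were named for the neutrophil, macrophage and B-cell lists. The 3 genes nearest in profile to Nlrp3, Il1b, Il1rn and Il1r1 were named too, among those with a mean of at least 1 CPM and an official name. Outside this rule, Tnf and Ptgs2 were named after their values were seen, and Il6 and Cxcl2 as genes too low to test.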

Additional observations from a re-analysis of the deposited data

How the results depend on the processing

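Of the 9 tested genes edgeR called 0, as did limma-voom, other scalings (RLE or upper quartile), no filter, a filter at 1 CPM, a threshold of 0.1 and each library left out. DESeq2 called 3, limma-voom with quality weights 2, and DESeq2 without vincristine replicate 1 called 2. Over all genes edgeR called 60, against 554 by DESeq2, 476 with quality weights, 99 without a filter, 125 at the threshold of 0.1, 588 by DESeq2 without vincristine replicate 1, and 0 to 346 with a library left out. Leaving out vincristine replicate 1 gave 346, vincristine replicates 2 and 3 gave 6 and 18, and any vehicle library gave 0. Of pathway list genes edgeR called 0, DESeq2 10, quality weights 8, DESeq2 without vincristine replicate 1 called 8, and leaving out a library 0 to 3. The replicate block called 1 of the 9 genes (Il1rn, adjusted p = 0.0109 in edgeR), 4 pathway list genes and 261 genes in all. Correlations of deviations between libraries of the same number were 0.428, 0.248 and -0.0944, not every library correlated best with its own number, and the numbers do not show a pairing. The log2 fold change of Il18 turned to -0.051 with quality weights, -0.15 without vincristine replicate 1, -0.03 without vehicle replicate 2 and -0.16 by DESeq2 without vincristine replicate 1, and ran from -0.15 to 0.33 with a library left out. Over the same fits, the difference of log2 Il1rn to Il1b ratios ran from 0.64 to 0.97 and that of Il1r2 to Il1r1 ratios from 0.63 to 1.58. The cause of these changes was not tested. Depth limits Il1a most, at 3 to 16 reads per library.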
